A study of Mus musculus with 5 samples.

Results

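The scaffolds of the Cullin-RING E3 ligases (CRLs) examined here were the canonical cullins Cul1, Cul2, Cul3, Cul4a, Cul4b and Cul5. They were taken as the rows of the deposited cullin sheet whose first mouse gene symbol was one of these names. This gave 6 genes with 14 probe sets, of 8 genes with 17 probe sets in that sheet and of 71 genes with 130 probe sets in the cullin and F-box sheets together. A probe set is a group of short array probes that reads 1 gene, and Cul1 and Cul4a had 1 each, Cul2 and Cul4b had 2 each, Cul5 had 3 and Cul3 had 5. No member was lost to a filter.

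The arrays profiled the expression of CRL components in the mouse heart, and the study used the profile to choose targets for a knockdown screen in CM. There were 5 samples of male mice aged 6 months, each 1 pool of RNA from 5 mice on 1 array. Left ventricle, cardiomyocytes (CM), non-failing cardiac fibroblasts (NF CFb) and lung fibroblasts (lung Fb) came from healthy C57Bl/6N mice, and the samples of left ventricle, CM and lung Fb were labelled wildtype. Failing cardiac fibroblasts (F CFb) came from hearts of beta1-adrenergic transgenic mice with heart failure, so that the transgene, its strain and the failing state cannot be told apart. The labels do not give the promoter of the transgene. Values were the authors' log2 expression levels. The lowest of all 130 probe sets read -3.32 in left ventricle, -0.75 in CM, 4.82 in NF CFb, 4.76 in F CFb and 1.76 in lung Fb. The SD over the 130 was 3.37, 2.62, 1.11, 1.20 and 2.12 in the same samples. Folds and level marks are therefore read on unlike scales. With 1 sample per condition no difference could be tested, so differences are descriptions of these 5 samples, and the only spread available is the SD over the probe sets of a gene within them. None of the 22 cell type markers listed for the samples was in the sheets, and the whole-array table names no genes, so the labelled cell types were not checked against markers here.

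A CRL is built on a cullin, which holds a RING protein such as Roc1 (Rbx1) at one end and a substrate adaptor at the other, and which is switched on when the ubiquitin-like protein Nedd8 is attached to it. The cullin decides which family of adaptors the ligase can use. Cul1 joins Skp1 and the F-box proteins in the SCF complex, Cul2 and Cul5 join elongin B and C with VHL-box or SOCS-box proteins, Cul3 joins BTB proteins such as Keap1, and Cul4a and Cul4b join Ddb1. In heart muscle, CRLs take part in the turnover of contractile proteins and in growth signalling, and the SCF receptor Fbxo32 (Atrogin-1) is the best known example.

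Promoter sequences are printed for the members with 1 annotated start in the RefSeq promoter table of mouse assembly GRCm38.p6. The related genes Cul4a and Cul4b had the most and the least variable gene means of the 6 cullins. Whether this goes with their promoter sequences was not tested. The genome build behind the deposited probe sets is not stated. Windows of the chromosome that holds Cul2 were left out before matching, so Cul2 was not looked for. The other 5 members were matched in the table, and Cul1 had 3 starts there. Each window holds the 200 bases upstream of the annotated start of the gene, read 5′ to 3′ on the strand of the gene. Capitals mark the GC box (GGGCGG or CCGCCC), the CCAAT box (CCAAT or ATTGG) and the palindrome TCGCGA, each searched on both strands. TATAAA and CACGTG were searched too and had no match in these 4 windows. No overlap between matches was seen. The windows lie at chr1:80340691-80340890 (minus strand) for Cul3, chr8:13105423-13105622 (plus strand) for Cul4a, chrX:38576197-38576396 (minus strand) for Cul4b and chr9:53667508-53667707 (minus strand) for Cul5.
Cul4a: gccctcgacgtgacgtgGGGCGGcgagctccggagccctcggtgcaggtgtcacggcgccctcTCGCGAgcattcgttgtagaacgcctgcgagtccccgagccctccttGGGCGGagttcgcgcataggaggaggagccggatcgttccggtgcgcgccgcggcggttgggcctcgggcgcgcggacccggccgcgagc
Cul4b: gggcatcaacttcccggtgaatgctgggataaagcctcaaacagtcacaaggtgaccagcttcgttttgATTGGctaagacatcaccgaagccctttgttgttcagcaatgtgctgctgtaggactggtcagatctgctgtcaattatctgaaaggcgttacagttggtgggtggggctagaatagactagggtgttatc
Cul3: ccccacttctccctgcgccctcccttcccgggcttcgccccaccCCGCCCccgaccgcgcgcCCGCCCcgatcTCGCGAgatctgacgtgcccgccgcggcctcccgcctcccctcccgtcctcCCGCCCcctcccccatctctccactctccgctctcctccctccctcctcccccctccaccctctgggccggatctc
Cul5: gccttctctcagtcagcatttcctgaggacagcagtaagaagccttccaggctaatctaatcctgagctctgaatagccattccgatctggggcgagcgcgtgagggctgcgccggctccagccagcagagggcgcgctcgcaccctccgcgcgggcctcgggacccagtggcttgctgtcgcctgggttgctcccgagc

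The Cul4a window held 33 CG pairs at 74% G and C, whereas the Cul4b window held 4 CG pairs at 48.5%. Over the 32851 windows of the same length kept from the table, the median was 5 CG pairs and 53% G and C. The Cul3 window held 21 CG pairs at 76.5% and the Cul5 window 15 at 64.5%. GC boxes were found at 2 places in Cul4a and at 3 places in Cul3, and 31.0% of the kept windows held at least 1. TCGCGA stood 1 time in Cul3, starting 127 bases before the start, and 1 time in Cul4a, starting 137 bases before it. This palindrome was found in 1.80% of the kept windows. The only match in Cul4b was a CCAAT box, which 29.3% of windows held, and Cul5 had no match. For comparison, TATAAA was present in 9.96% and CACGTG in 5.26% of windows. A match is a match of letters, and binding was not measured.

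Cul1, the scaffold of the SCF complex, had a high level in CM and lung Fb, a lower one in both cardiac fibroblast samples, and almost no signal in left ventricle. Its only probe set, 1448174_at, read 0 in left ventricle, 9.38 in CM, 6.31 in NF CFb, 5.63 in F CFb and 8.73 in lung Fb on the log2 scale. On the linear scale these are intensities of 1, 667, 79.2, 49.6 and 424. CM was thus 3.07 above NF CFb (8.42-fold) and 0.65 above lung Fb, and F CFb was 0.68 below NF CFb. With a single probe set there is no spread to set these differences against. The gene lies at chr6:47453732-47526144 in GRCm38.p6.

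Cul2, the scaffold that carries the von Hippel-Lindau protein and so acts on hypoxia-inducible factors, was read by probe sets that opposed each other. Probe set 1451231_a_at read 1.20 in left ventricle, 8.44 in CM, 6.33 in NF CFb, 5.06 in F CFb and 7.52 in lung Fb. Probe set 1419765_at read 4.27, 1.15, 5.48, 6.20 and 5.44 in the same samples. CM was the highest sample for the first probe set and the lowest for the second. The suffix _a_at marks probes that match several transcripts of the same gene. The gene means of 2.74, 4.80, 5.90, 5.63 and 6.48 therefore average opposite readings, with an SD over probe sets of 5.15 in CM and 0.60 in NF CFb. No direction for Cul2 in CM can be given from its mean.

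Cul3, the scaffold for BTB proteins, was highest in CM and next highest in lung Fb by its gene mean. Its gene mean was 4.73 ± 2.55 in left ventricle, 9.0 ± 1.61 in CM, 6.54 ± 0.70 in NF CFb, 6.64 ± 1.74 in F CFb and 7.71 ± 2.29 in lung Fb (SD over 5 probe sets). Probe set 1422794_at read 7.61, 10.90, 5.85, 9.41 and 10.33. Probe set 1422795_at read 6.65, 9.86, 5.98, 5.31 and 8.82. Both placed CM highest, but the first put F CFb far above NF CFb and the second put it below. Probe set 1450756_s_at, whose suffix marks probes shared with other transcripts, read 3.47, 9.54, 7.32, 5.05 and 8.71. Probe set 1434717_at read 1.20, 7.78, 6.30, 6.51 and 4.71, and probe set 1434718_at read 4.71, 6.94, 7.27, 6.93 and 5.99. CM was the highest sample for 4 of the 5 probe sets, and for 1434718_at NF CFb was. Lung Fb lay above F CFb in 3 of the 5, and below both cardiac fibroblast samples for 1434717_at and 1434718_at. The gene lies at chr1:80264923-80340690.

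Cul4a, a scaffold for Ddb1 complexes that act in DNA repair and replication, had the widest range of levels of all 71 genes, 12.03 on the log2 scale, against a median range of 3.74. Its only probe set, 1451971_at, read -0.51 in left ventricle, 11.52 in CM, 10.69 in NF CFb, 5.49 in F CFb and 10.93 in lung Fb. These are linear intensities of 0.7, 2929, 1649, 44.9 and 1956. CM, NF CFb and lung Fb lay within 0.83 of each other, while F CFb and left ventricle stood far below all 3 of them. This place rests on the left ventricle value: without that sample the range of Cul4a was 6.03, and 7 of the 71 genes had a wider one. The gene lies at chr8:13105623-13147940.

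Cul4b, the X-linked paralogue of Cul4a with the same adaptor, was by contrast the steadiest of the 6 by its gene mean. Its range of 1.49 placed it 69th of the 71 genes when these were ordered from the widest range, and 63rd without left ventricle. Its gene mean was 6.54 ± 1.77 in left ventricle, 6.99 ± 2.28 in CM, 7.15 ± 1.06 in NF CFb, 6.64 ± 0.47 in F CFb and 8.03 ± 1.70 in lung Fb (SD over 2 probe sets). Probe set 1417453_at read 7.79, 8.60, 7.90, 6.31 and 9.23, and probe set 1417454_at read 5.29, 5.38, 6.41, 6.98 and 6.83. Lung Fb was highest and F CFb lowest for the first, whereas F CFb was highest for the second. Their ranges were 2.92 and 1.69, so the average of these probe sets ranged less than either of them. The range of Cul4a, by contrast, is that of 1 probe set. Only the step from lung Fb to NF CFb in the order of the Cul4b means was in 1 direction in both probe sets and larger than their SD (0.88, SD 0.64). The gene lies at chrX:38531616-38576196.

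Cul5, the scaffold for SOCS-box proteins that dampen cytokine signalling, followed an order of CM, lung Fb, NF CFb, F CFb and left ventricle from high to low. Its gene mean was 3.47 ± 4.27 in left ventricle, 8.33 ± 2.43 in CM, 7.06 ± 1.57 in NF CFb, 6.24 ± 1.11 in F CFb and 7.53 ± 2.78 in lung Fb (SD over 3 probe sets). Probe set 1456102_a_at read 6.89, 11.14, 8.88, 6.79 and 10.48. Probe set 1452722_a_at read -1.32, 7.02, 6.21, 4.96 and 7.14, and probe set 1428287_at read 4.85, 6.83, 6.10, 6.97 and 4.96. The last differed from the others in that F CFb was its highest sample and lung Fb among its lowest. Each of the 4 steps in the order of the means was smaller than its SD over the probe sets. The gene lies at chr9:53614581-53667507.

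**Figure D1:**
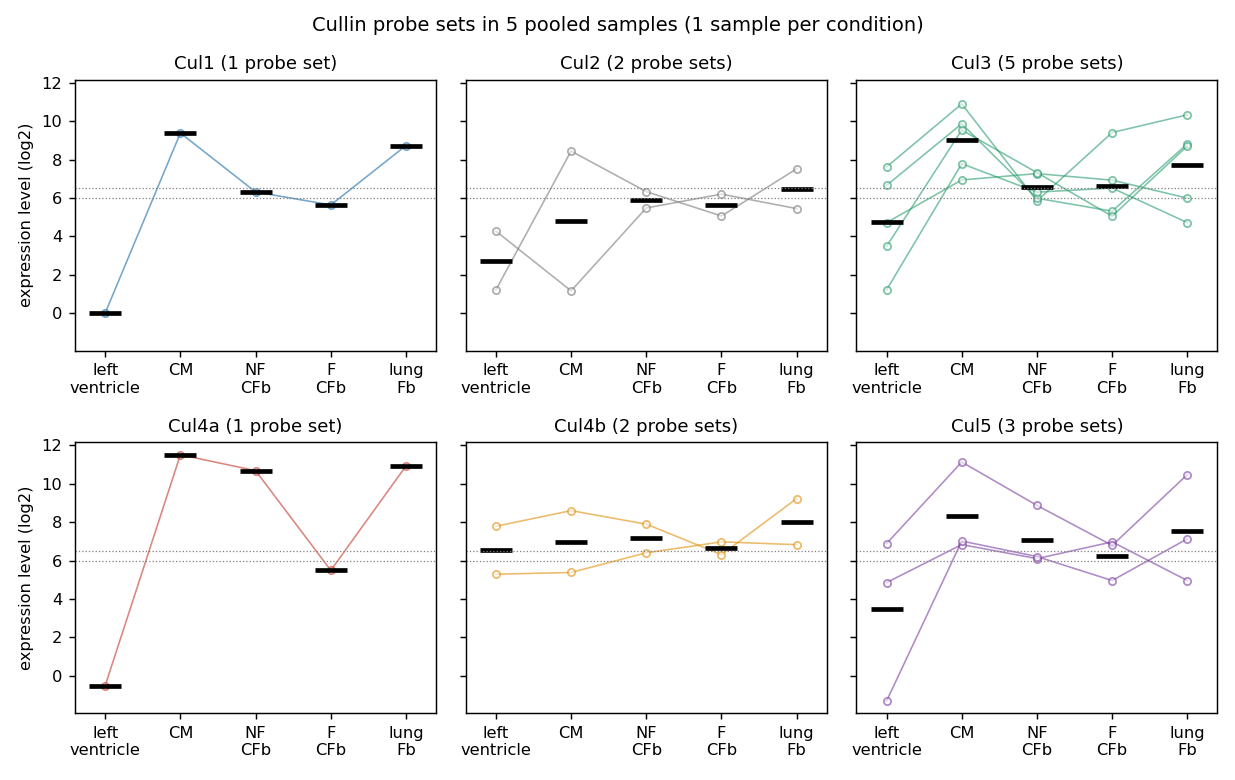
Expression levels (log2, y axis) of the 14 probe sets of the 6 cullins in the 5 samples (x axis), with open points joined for each probe set, black bars for the gene mean and dotted lines at 6.0 and 6.5. Cul4a falls from 10.69 in NF CFb to 5.49 in F CFb, and the Cul2 probe sets cross between left ventricle and CM.

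The 6 genes were set in an order of samples by their means. CM was the highest sample for Cul1, Cul3, Cul4a and Cul5, and lung Fb for Cul2 and Cul4b, while left ventricle was the lowest for all 6 as deposited. With sample medians made equal over the 130 probe sets, Cul4b was higher in left ventricle than in CM, by 1.01. Left ventricle was then its highest sample (7.87, with lung Fb at 7.85), and Cul3 was higher in left ventricle (6.06) than in NF CFb (5.96). With quantile normalization left ventricle was not the lowest sample for Cul2, Cul3, Cul4b or Cul5. Under both scalings it stayed the lowest for Cul1 and Cul4a. Over probe sets, CM was the highest sample for 8 of 14, against 27 of all 130 (20.8%). Left ventricle was the lowest sample for 9 of the 14, against 63 of 130 (48.5%). Among neighbours with several probe sets, the step from CM to lung Fb for Cul3 (1.29, SD 1.01 over probe sets) was in 1 direction in 5 of 5 probe sets. Apart from this step and the one from lung Fb to NF CFb for Cul4b, the steps between neighbours of Cul2, Cul3, Cul4b and Cul5 were no larger than their SD over probe sets.

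Levels were also set against marks that the study took from the manufacturer for relevant and for strong expression. At least 6.0 was reached by 1 of 6 cullins in left ventricle, 5 in CM, 5 in NF CFb, 3 in F CFb and 6 in lung Fb. Over all 71 genes the shares were 33.8%, 53.5%, 74.6%, 73.2% and 49.3%. Above 6.5 there were 1, 5, 4, 2 and 5 cullins, against 28.2%, 43.7%, 64.8%, 54.9% and 39.4% of all genes. The cullin under 6.0 in CM was Cul2, through its probe set at 1.15, and the cullin above both marks in left ventricle was Cul4b. These counts move with the scaling of the arrays, as 3 cullins reached 6.0 in NF CFb and none passed 6.5 in F CFb once sample medians were made equal.

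CM and NF CFb compare muscle cells with fibroblasts, both from healthy C57Bl/6N hearts. Cul1, Cul3 and Cul5 were at least 2-fold higher in CM, by 3.07, by 2.46 ± 2.09 and by 1.27 ± 0.86 on the log2 scale (SD over probe sets where there were several). Over all 71 genes, 21.1% were higher by that margin in CM and 46.5% lower. Cul5 was higher in CM in 3 of 3 probe sets (0.73 to 2.26) and Cul3 in 4 of 5 (-0.33 to 5.05). Cul4a was 0.83 higher, short of 2-fold. Cul4b differed by -0.16 ± 1.22, less than its spread. Cul2 was past 2-fold in the lower direction by its mean (-1.10 ± 4.55), but its probe sets differed by -4.32 and 2.12, and its direction turned with quantile normalization (1.22). The median difference was 1.16 over the 14 cullin probe sets and -0.54 over all 130. With sample medians made equal, 4 of 6 cullins were at least 2-fold higher (Cul4a joined) and none lower, against 20 and 27 of 71 genes. Quantile normalization gave 27 and 23 genes, with Cul1, Cul2, Cul3 and Cul5 higher and no cullin lower.

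In the same pair the substrate receptors that work with Cul1 are given by their counts. Past 2-fold, 5 of 33 Fbxo genes were higher and 15 lower in CM. The Fbxw genes, with WD40 repeats, had 2 higher and 8 lower of 13, and the Fbxl genes, with leucine-rich repeats, 4 higher and 8 lower of 17. Their median differences were -0.42, -1.44 and -0.66. The median over the 6 cullins was 1.05, and over all 71 genes -0.51. Of 20 other CRL partners that were looked for, such as adaptors and Nedd8 enzymes, none was in the sheets.

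F CFb and NF CFb compare fibroblasts of failing transgenic and of healthy hearts. Cul4a was 5.20 lower in F CFb on the log2 scale (36.7-fold, linear intensities of 44.9 and 1649), and it was the only cullin of the 6 past 2-fold. Of all 71 genes, 22.5% were lower by that margin and 19.7% higher. In F CFb the Cul4a level of 5.49 ranked 102nd of 130 probe sets, and the lowest of them read 4.76. Cul4a had 1 probe set and each condition 1 sample, so neither a second reading of the gene nor of the condition stands beside this difference. It kept its direction under each scaling tried, and was lower by 6.65 with quantile normalization. Its paralogue Cul4b differed by -0.51 ± 1.53 over probe sets that moved in opposite directions (-1.59 and 0.57).

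The other members in F CFb differed from NF CFb by no more than the SD over their probe sets, or had a single probe set. Cul1 was 0.68 lower. Cul2 differed by -0.28 ± 1.41, and this turned to 0.09 with quantile normalization. Cul3 differed by 0.10 ± 2.15, an average over probe sets from -2.27 (1450756_s_at) to 3.56 (1422794_at). Cul5 differed by -0.82 ± 1.52, with 1428287_at 0.87 higher, 1452722_a_at -1.25 and 1456102_a_at -2.09. Over the 14 probe sets, 5 were higher and 9 lower in F CFb, with a median of -0.67 against -0.16 over all 130. With equal sample medians 17 genes were past 2-fold higher and 14 lower, and Cul4a was still the only cullin of the 6. Quantile normalization gave 23 and 20 genes, and Cul5 joined Cul4a. The Fbxo genes had 7 higher and 10 lower of 33, the Fbxw genes 3 and 3 of 13, and the Fbxl genes 4 and 2 of 17.

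Lung Fb and NF CFb compare healthy fibroblasts of different organs. Cul1 was 2.42 higher in lung Fb (5.36-fold) and Cul3 1.17 ± 2.62 higher, and these were the cullins past 2-fold. Over all 71 genes, 14.1% were past 2-fold in the higher direction and 52.1% in the lower. For Cul3 the probe sets ranged from -1.59 to 4.48, with 3 higher and 2 lower, so the mean lies within their spread. Cul4b was 0.88 ± 0.64 higher, in 2 of 2 probe sets. Cul2 (0.58 ± 0.87) and Cul5 (0.46 ± 1.43) differed by less than their spread. Cul4a differed by 0.25 as deposited and by -0.78 after quantile normalization, so its direction in this pair rests on the scaling. With equal medians 17 of all genes were higher and 29 lower, and 3 cullins were higher (Cul4b joined). Quantile normalization gave 25 and 25 genes, with 3 cullins higher, as Cul2 (2.35) joined Cul1 and Cul3, and none lower. The Fbxo, Fbxw and Fbxl genes had 3, 1 and 3 genes higher and 17, 10 and 9 lower.

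**Figure D2:**
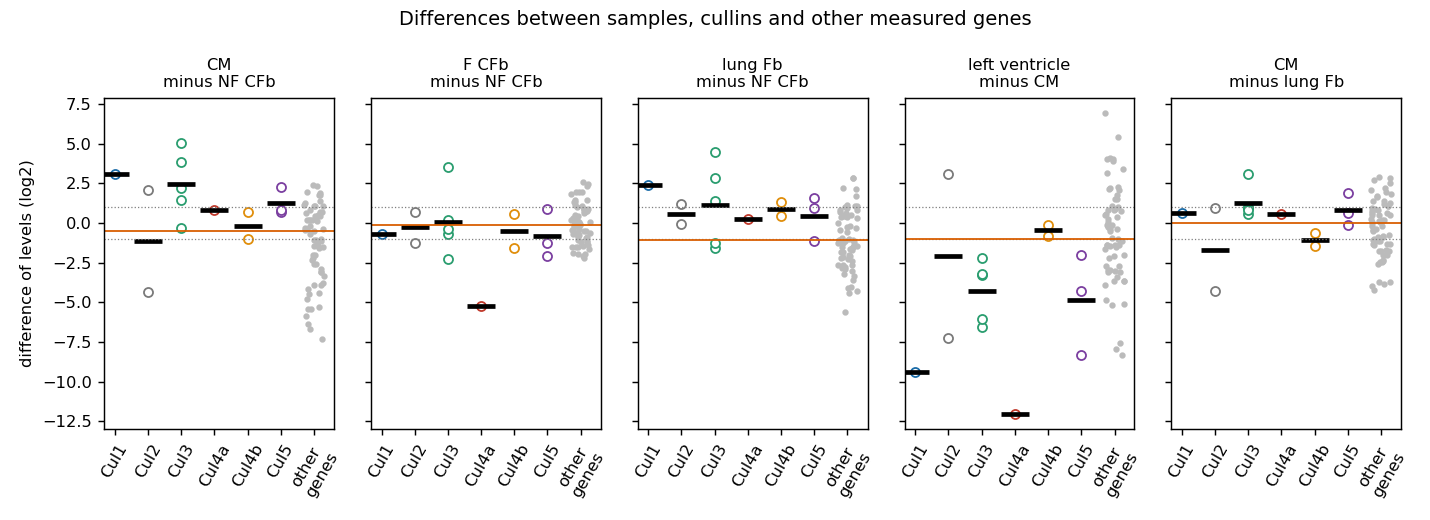
Differences of log2 level (y axis) in 5 pairs of samples, with open points for cullin probe sets, black bars for cullin gene means, grey points for the other 65 genes, dotted lines at 2-fold and an orange line at the median over all 71 genes. Cul4a at -5.20 in F CFb minus NF CFb lies below every grey point of that panel, and Cul4a at -12.03 and Cul1 at -9.38 do so in left ventricle minus CM.

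Left ventricle and CM compare whole tissue with isolated muscle cells, as separate pools from healthy hearts. Of the 6 cullins, 5 were at least 2-fold lower in left ventricle, by 9.38 (Cul1), 2.06 (Cul2), 4.27 (Cul3), 12.03 (Cul4a) and 4.86 (Cul5) on the log2 scale. Over all 71 genes, 49.3% were lower by that margin and 23.9% higher. Cul3 was lower in 5 of 5 probe sets (SD 1.93) and Cul5 in 3 of 3 (SD 3.22), while for Cul2 1 probe set was lower by 7.24 and the other higher by 3.12. Cul4b was 0.45 ± 0.51 lower as deposited, and higher by 1.01 with equal sample medians. Of all 130 probe sets, 34 were under 2 in left ventricle and 13 in CM, and of the 14 cullin probe sets 5 and 1. The linear values of left ventricle were all given to at most 1 decimal, against 5.38% in CM, and the part of this in the differences was not tested. The sizes for Cul1 and Cul4a rest on left ventricle intensities of 1 and 0.7. In a tissue, fewer cells of a type and less RNA per cell cannot be told apart. With equal medians 33 genes were higher and 22 lower, and of the cullins Cul4b was higher and 4 were lower. Quantile normalization gave 27 and 16 genes, with no cullin higher and 4 lower.

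CM and lung Fb, from different organs, had the most similar cullin levels of any pair of the 5 samples by rank correlation. Over the 14 cullin probe sets the rank correlation of levels was 0.88, and over all 130 it was 0.75. These points share the 2 samples and the response of each probe set. For left ventricle with CM the values were 0.097 and 0.18, for NF CFb with F CFb -0.099 and 0.18, and for CM with NF CFb 0.40 and 0.096. The next highest pair over the cullins was left ventricle with F CFb, at 0.62 and -0.022. By the SD of the differences over the 14 probe sets, NF CFb with lung Fb (1.68) was slightly closer than CM with lung Fb (1.69). Cul3 was 1.29 ± 1.01 higher in CM than in lung Fb, in 5 of 5 probe sets (0.57 to 3.07), and was the only one of the 6 at least 2-fold higher, against 23.9% of all genes. It fell short of 2-fold with the median (0.83), the highest probe set (0.57), the linear mean (0.80) or quantile normalization (0.98). Cul4b was just past 2-fold lower in CM (-1.04 ± 0.58, in 2 of 2 probe sets), and just short of it with equal sample medians (-0.995). The mean of Cul2 was also past 2-fold lower (-1.68 ± 3.68), but its probe sets differed by -4.29 and 0.92, which gives no direction. The background in the lower direction was 35.2% of all genes. Cul1 was 0.65 higher, Cul4a 0.58 and Cul5 0.81 ± 1.0. With equal medians 17 of the 71 genes were higher and 23 lower in CM, with Cul3 higher and Cul2 lower among the cullins. Quantile normalization gave 14 and 20 genes, with no cullin higher and Cul2 and Cul4b lower.

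**Figure D3:**
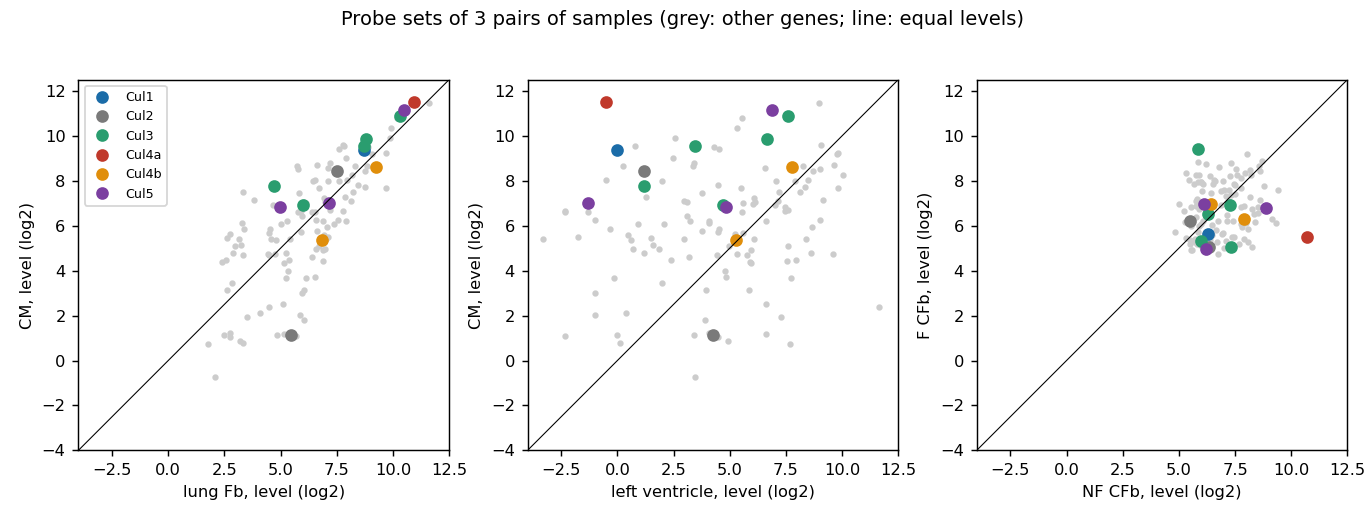
Levels of the 130 probe sets (log2) in lung Fb, left ventricle and NF CFb (x axes) against CM, CM and F CFb (y axes), with the 14 cullin probe sets coloured by gene. In lung Fb and CM most cullin points lie near the line of equal levels, with a Cul2 point (5.44 and 1.15) and a Cul3 point (4.71 and 7.78) farthest from it, and in NF CFb and F CFb the Cul4a point stands alone at 10.69 and 5.49.

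Likeness between genes was measured as the root mean square distance of the 5 gene means after each gene was centred on its own mean. Among the 6 cullins, Cul3 and Cul5 lay nearest (0.58) and Cul4a and Cul4b farthest apart (4.26). Cul4a was nearest to Cul1 (1.78), at a distance well under its median of 4.38 to all genes. This distance includes left ventricle, where both had their lowest level (-0.51 for Cul4a and 0 for Cul1). Elsewhere they differed, as F CFb minus NF CFb was -5.20 for Cul4a and -0.68 for Cul1. The distance without left ventricle was not calculated. Fbxo21 was nearest to both Cul3 and Cul5 (0.44 each), Fbxl4 to Cul2 (0.44) and Fbxo28 to Cul4b (0.44). Distances over 5 single samples describe these samples only.

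The sheet held 2 further cullins, Cul7 and Cul9, which are atypical members of the family. Cul7, with 1 probe set, read 7.47 in left ventricle, 6.66 in CM, 5.59 in NF CFb, 4.93 in F CFb and 7.79 in lung Fb. Unlike Cul1, Cul3, Cul4a and Cul5, it was higher in left ventricle than in CM, by 0.81. Cul9 had means of 2.95, 3.08, 6.86, 7.38 and 4.85, and differed by -3.79 in CM against NF CFb, lower in 2 of 2 probe sets, where Cul1, Cul3 and Cul5 were higher.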

How the data were processed

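Expression was measured in 5 pooled mouse samples on Affymetrix arrays. The design text names the Mouse Expression Set and the Exon Array Computational Tool, and the label protocol names whole-transcript kits. The authors deposited sheets of log2 expression levels for the cullin and F-box genes, and a whole-array table of linear intensity. How probes were corrected for background, summarised and normalized is not given in the sources. For 129 of 130 probe sets, and 14 of 14 of the cullins, 2 to the power of the log2 value equalled the deposited intensity within 1 percent or 0.01 units. The sheets' further columns, the authors' log2 differences between samples, were not used.

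Gene levels were mean log2 values over probe sets. Differences were taken for 5 pairs, which share samples with each other, and past 2-fold means an absolute difference of at least 1. The genes named are the 6 members with every probe set, Cul7 and Cul9, and the nearest gene to each member. The nearest gene to Cul1 is not reported here. The members, lists and tests were chosen with earlier results of these data known. Alternatives were the median, highest or linear mean of the probe sets, probe sets left out by name, level or number of genes, equal sample medians, quantile normalization, the whole-array table and other fold rules. Equal medians and quantile normalization were computed over the 130 probe sets of the cullin and F-box sheets, not over the whole array. They can therefore also remove differences between samples that this set of genes shares. The highest probe set of a gene was the 1 with the highest mean over the 5 samples, so it need not be highest in each sample. Quantile normalization without left ventricle was added after seeing the data. Equal medians moved the samples by 1.33 (left ventricle), -0.14 (CM), -0.58 (NF CFb), -0.42 (F CFb) and -0.18 (lung Fb). Leaving out a sample removes its condition, and precision is limited by having 1 array for each. Calculations used Python 3.11.15, pandas 2.3.3 and NumPy 2.4.6, plots used matplotlib 3.10.9, and the functions were tested on simulated data.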

Additional observations from a re-analysis of the deposited data

How the results depend on the processing

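No paired analysis was possible because no condition has a second sample. Of 588 single levels and differences recomputed, 550 moved by less than the SD over probe sets, for which Cul1 and Cul4a, with 1 probe set, were given the median SD of genes with several. Another 31 moved by more, and 7 were differences past 2-fold that changed sign, all of Cul2. Of 294 differences, 22 changed sign at any size: 11 of Cul2, 5 of Cul4b, 4 of Cul5, 2 of Cul4a and 0 of Cul1 and Cul3. Part of this stability was fixed in advance. No cullin probe set named several genes or stayed under 6.0 in every sample, so those settings left out none. The whole-array table held the same cullin values within the tolerance given above. For Cul1 and Cul4a, with 1 probe set each, the median, highest, linear mean and suffix settings could not move a value either. For Cul2 and Cul4b, with 2 probe sets each, the median equals the mean. Their levels could not move by as much as the SD of 2 values with the highest, linear mean or suffix settings. The Cul2 level in CM was 4.80, and 8.44 (highest) and 1.15 (without suffixed probe sets) both counted as moves of less than the SD. Cul2 turned from lower to higher in CM against NF CFb with the highest probe set (2.12), the linear mean (1.49), quantile normalization (1.22) and that without left ventricle (1.03), and against lung Fb with the highest probe set (0.92) and linear mean (0.63). Left ventricle minus CM became 3.12 without probe sets named _s_at, _x_at or _a_at. Among differences short of 2-fold, Cul5 turned to 0.58 (median) and 0.87 (without those probe sets) in F CFb minus NF CFb and to -1.14 (without them) in lung Fb minus NF CFb, Cul4b to 1.01 (equal medians) and 0.59 (quantile) in left ventricle minus CM, and Cul4a to -0.78 (quantile) in lung Fb minus NF CFb.

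Of 236 counts, 188 stayed within 1.5 times and 48 did not. The 188 include those of the settings that could not move a cullin value. In left ventricle the cullins of at least 6.0 became 3 (highest probe set) or 2 (linear mean, equal medians, quantile), and those above 6.5 became 3 (highest). In NF CFb those of at least 6.0 became 3 (equal medians, quantile), and those above 6.5 became 2 (median, equal medians, without suffixed probe sets). In F CFb those above 6.5 became 0 (equal medians, quantile) or 1 (quantile without left ventricle).

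For folds, the cullin lower in CM than NF CFb became 0 with the highest probe set, linear mean, equal medians, both quantile settings, 4-fold, the level rule of 6.0 and every probe set in 1 direction. In F CFb minus NF CFb the lower cullins became 4 (highest), 2 (linear mean, both quantile settings) or 3 (1.5-fold), and the higher 1 (highest). In lung Fb minus NF CFb the higher became 5 (highest), 4 (linear mean) or 1 (4-fold, every probe set), and the lower 1 (without suffixed probe sets). In left ventricle minus CM the higher became 1 (equal medians, without suffixed probe sets). In CM minus lung Fb the higher became 0 (median, highest, linear mean, both quantile settings, 4-fold), 2 (without suffixed probe sets) or 3 (1.5-fold), and the lower 0 (highest, linear mean, quantile without left ventricle, 4-fold) or 1 (equal medians, every probe set). The causes were not tested.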
